A study of Mus musculus with 4 samples.

Results

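The Serpin genes are those whose symbol starts with Serpin in the deposited expression table, and 63 of its 23920 genes met that rule, on 82 transcript rows that were summed per gene. They fall into 9 clades, named by the letter after Serpin, of which clade A (25 genes) and clade B (27 genes) hold most members. Liver RNA came from 12-week-old male C57BL/6 mice, 2 libraries labelled SREBP1c wild-type (WT) and 2 labelled SREBP1c knockout (KO), and every animal had gone 24 h without food before 12 h of refeeding. SREBP1c, a product of Srebf1, is the transcription factor through which insulin raises lipogenic genes in liver. The labels do not describe the knockout allele, and they name separate samples without saying that each is another animal, so p-values here rest on the spread between samples that may differ only technically. In a bulk library, fewer cells of a type and less RNA per cell cannot be told apart.

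Serpins share a fold in which an exposed reactive loop acts as bait for a protease. Cleavage of the loop lets it insert into the body of the serpin, which traps and distorts the protease. Hepatocytes secrete most plasma serpins, which restrain elastase, thrombin, plasmin, kallikrein and complement proteases, while clade B serpins mostly stay inside cells and some members carry hormones or fold collagen instead of inhibiting anything. Several members, Serpina3n among them, belong to the acute phase response, in which the liver raises secreted defence proteins during inflammation.

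Close copies also differ more often per base at the loop than in the rest of the coding sequence. Mice carry several neighbouring copies of the α1-antitrypsin gene, which encodes the main plasma inhibitor of neutrophil elastase. The coding stretches below run from the hinge of the loop onward, 75 bases each, at coding bases 1084 to 1158 of the copies, from GENCODE M21 transcripts of GRCm38 (mm10). Capitals mark each base that differs from Serpina1a.

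Serpina1a: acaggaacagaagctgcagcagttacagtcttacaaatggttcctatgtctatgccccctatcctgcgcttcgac
Serpina1b: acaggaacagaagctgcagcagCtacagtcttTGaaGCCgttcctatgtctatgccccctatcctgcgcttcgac
Serpina1c: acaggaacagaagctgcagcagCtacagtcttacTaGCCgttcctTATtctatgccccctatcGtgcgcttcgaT
Serpina1d: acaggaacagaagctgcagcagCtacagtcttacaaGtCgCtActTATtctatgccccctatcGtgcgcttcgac
Serpina1e: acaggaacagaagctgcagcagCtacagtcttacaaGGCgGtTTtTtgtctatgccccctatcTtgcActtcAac

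Against Serpina1a, this stretch differed at 6 bases in Serpina1b, 10 in Serpina1c, 9 in Serpina1d and 11 in Serpina1e. Outside it the coding sequences of the 5 copies were nearly the same: Serpina1a and Serpina1c were 99.2% identical there against 86.7% within the stretch. For Serpina1d and Serpina1e the values were 96.8% and 88%. The stretch is short, so it held 10 of the 19 bases that differed between Serpina1a and Serpina1c. For Serpina1a and Serpina1b it held only 6 of 37, and for Serpina1d and Serpina1e 9 of 46. Of the 100-base windows in the Serpina1a transcript, 61% occurred unchanged in another gene's transcript, against 18.2% for Serpina1e. No source used here gives the read length or how the authors shared fragments between copies, so the level of a single copy is uncertain and the sum of the 5 copies is given beside it.

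The Serpina3 genes, the mouse relatives of α1-antichymotrypsin, are an expanded family too, but their copies are farther apart. The same stretch is shown for the 3 most abundant, with capitals at each base that differs from Serpina3k at the same place, compared without gaps.

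Serpina3k: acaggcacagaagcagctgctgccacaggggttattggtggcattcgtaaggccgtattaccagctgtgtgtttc
Serpina3m: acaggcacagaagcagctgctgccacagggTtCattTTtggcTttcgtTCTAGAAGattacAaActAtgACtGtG
Serpina3n: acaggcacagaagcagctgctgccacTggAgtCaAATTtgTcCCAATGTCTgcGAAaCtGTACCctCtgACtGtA

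Serpina3m differed from Serpina3k at 20 of these bases and Serpina3n at 31, all of them after the shared hinge. Over the whole coding sequence Serpina3k was 90.8% identical to Serpina3m and 82.6% identical to Serpina3n. Only 4.85% of the 100-base windows of Serpina3k and 0.204% of those of Serpina3n occurred in another gene. Of the 26 tested members with a matched transcript, 16 shared no such window with any gene, including all tested members of clades B to H. Outside the Serpina1 and Serpina3 groups, only Serpina11 shared any (41.9%), all of it with the single gene model Gm28577.

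Levels are FPKM, fragment counts scaled to transcript length and to the mapped fragments of a library, so they compare genes per length. Of the 63 genes, 17 were listed at 0 in all 4 libraries, 19 had a mean above 0 but below 1 FPKM, and 27 reached a mean of at least 1 FPKM and entered the test. A listed 0 need not mean absence, since Alb, the albumin gene, was also listed at 0 in every library. Just inside the minimum were Serpina9 (mean 1.03 FPKM) and Serpinb1a (1.11 FPKM), and just outside it Serpina3f (0.843 FPKM) and Serpinb8 (0.470 FPKM).

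Together the Serpin genes summed to 39910 and 40451 FPKM in the WT libraries and to 34252 and 33683 FPKM in the KO libraries. Both KO sums were below both WT sums, and the WT mean was 1.18 times the KO mean. As a share of all listed FPKM this was 7.43% and 7.45% in WT against 6.22% and 6.25% in KO. Nearly all of it came from the 5 Serpina1 copies and Serpina3k.

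**Figure D1:**
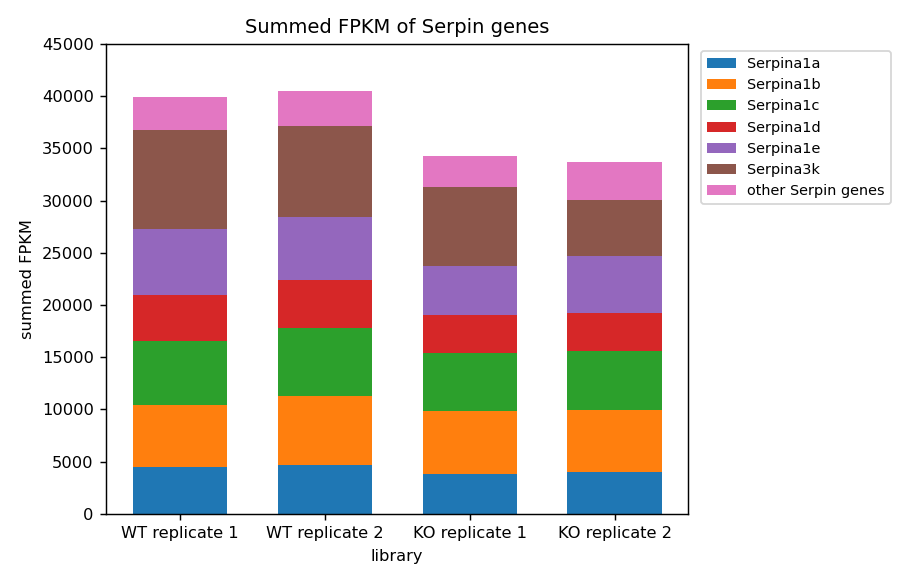
Stacked bars give the summed FPKM of Serpin genes in each of the 4 libraries, with the 5 Serpina1 copies, Serpina3k and all other Serpin genes as segments. Both KO bars end below both WT bars, at 34252 and 33683 against 39910 and 40451 FPKM, and the Serpina3k segment is smallest in KO replicate 2.

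Differences were tested with limma on log2(FPKM + 1) across all 9820 genes that reached that minimum, and p-values were adjusted by Benjamini-Hochberg. Log2 differences are given as KO minus WT, and this scale understates changes of low genes. Srebf1, the targeted gene, had 63.7 and 58.2 FPKM in WT, against 8.63 and 6.97 in KO (log2 difference −2.82, SE 0.13, adjusted p = 0.00172). Its single row does not separate SREBP1c from SREBP1a. Over all genes 7 passed the threshold of 0.05 (0.0713%), 1 higher (0.0102%) and 6 lower (0.0611%). None of the 27 tested Serpin genes did. At an unadjusted p under 0.05 from limma there was 1 Serpin gene of 27 (3.7%), Serpina6, against 7.75% of all genes. The limma adjusted p of the Serpin genes ran from 0.614 to 0.997 and their log2 differences from −0.51 to 0.58, so this test set none of the differences below apart from the spread between libraries.

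Both KO libraries lay below both WT libraries in 9 of the 27 genes (33.3%), against 16.4% of all genes tested. They lay above in 3 (11.1%), against 22.4% of all genes tested. The 9 include 4 Serpina1 copies that share fragments. With the 5 copies counted as their sum, 6 of 23 (26.1%) were lower. The KO libraries also lay on opposite sides of both WT libraries in 9 genes (33.3%), against 19.3% of all genes. The median gap between the KO libraries was 0.35 log2 units over the Serpin genes and 0.14 over all genes tested, while the gap between the WT libraries was 0.13 and 0.11.

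**Figure D2:**
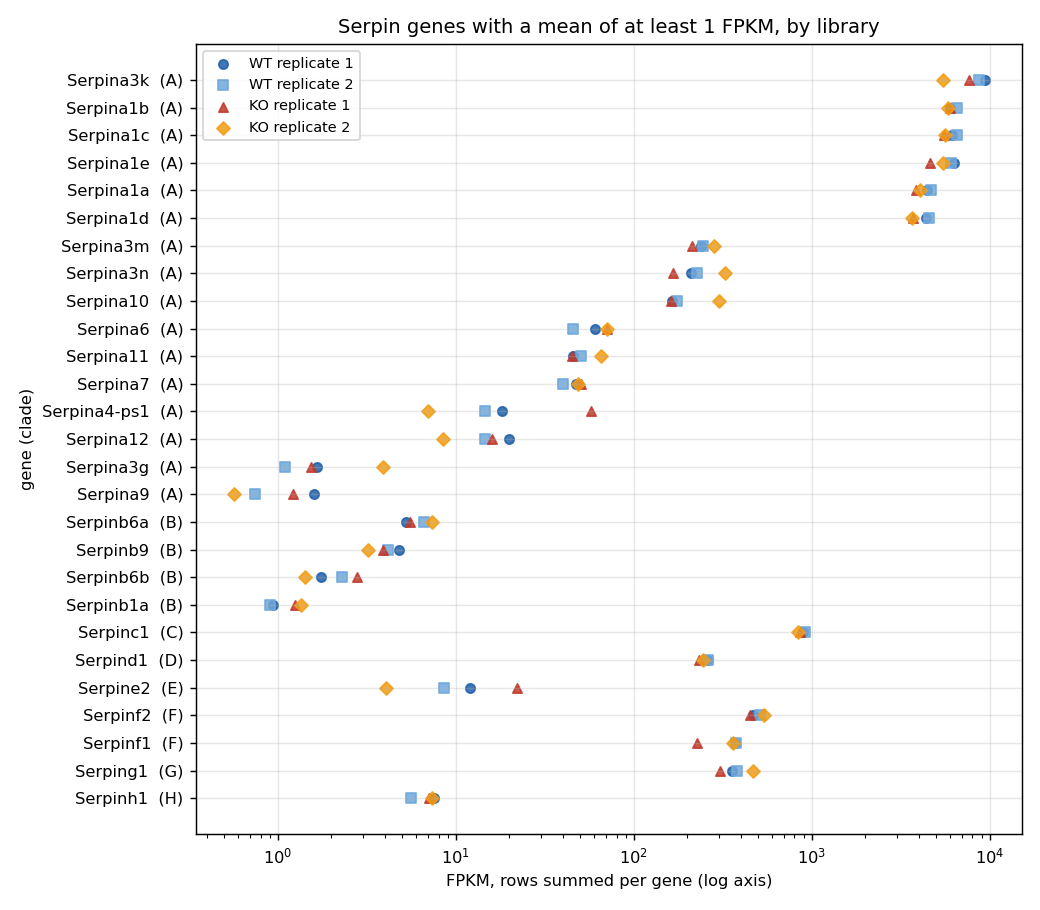
Points give FPKM on a log axis for the 27 Serpin genes with a mean of at least 1 FPKM, ordered by clade and mean, with 1 symbol per library. Serpina3k and the 5 Serpina1 copies lie between 3663 and 9403 FPKM, the secreted serpins of clades C, D, F and G between 228 and 916 FPKM, and clade B below 10 FPKM.

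Of the 24 clade A genes on chromosome 12, at 103616675 to 104414334 (mm10), 15 reached 1 FPKM. The remaining clade A gene, Serpina7, is on chromosome X (139079249 to 139085236). Relative to the WT mean, the median log2 difference over the 16 tested clade A genes was −0.10 for KO replicate 1 and −0.13 for KO replicate 2. The WT libraries themselves lay at 0.01 and −0.01 on that measure. The sign for KO replicate 2 rested on the 5 Serpina1 copies. Over the 11 genes without them the median was −0.0535 for KO replicate 1 and 0.22 for KO replicate 2. The WT libraries lay at 0.12 and −0.12 over these 11 genes, with KO replicate 1 between them. KO replicate 2 was above both WT libraries in 7 of the 11 and below in 4. Over all genes tested the medians were 0.01 for KO replicate 1 and 0.02 for KO replicate 2. Similar medians hid different genes: KO replicate 1 was above both WT libraries in 3 clade A genes and below in 9, and KO replicate 2 was above in 7 and below in 9. Over all genes tested, KO replicate 1 was above both WT libraries in 39.1% and below in 32.8%, and KO replicate 2 above in 41.6% and below in 33.9%. Both comparisons share the WT libraries.

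The sum of the α1-antitrypsin copies was 27315 and 28407 FPKM in WT, against 23706 and 24657 in KO, with a WT mean 1.15 times the KO mean, and the groups did not overlap. Serpina1d had 4402 and 4572 FPKM in WT, against 3699 and 3663 in KO (log2 difference −0.29, SE 0.17, limma adjusted p = 0.738). Serpina1e had 6343 and 6046 FPKM in WT, against 4641 and 5441 in KO (log2 difference −0.30). For these copies each KO library was below each WT library. Serpina1a had 4448 and 4670 FPKM in WT, against 3857 and 4045 in KO. Serpina1c had 6140 and 6527 FPKM in WT, against 5506 and 5641 in KO, again without overlap. Serpina1b overlapped, with 5982 and 6591 FPKM in WT, against 6003 and 5867 in KO. Serpina1f, a further gene of the same row, was listed at 0 in all 4 libraries.

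Serpina3k (chromosome 12, 104338486 to 104345739), whose product binds tissue kallikrein, was the most abundant Serpin gene in WT. It had 9403 and 8756 FPKM in WT, against 7640 and 5433 in KO, a WT mean 1.39 times the KO mean (log2 difference −0.49, SE 0.24, limma adjusted p = 0.684). KO replicate 2 was the lowest, and its level ranked 15th of all listed genes against 4th, 5th and 7th in WT replicate 1, WT replicate 2 and KO replicate 1. The neighbours Serpina3m and Serpina3n went the other way in that library. Serpina3n (104406646 to 104414334), an inhibitor of granzyme B and an acute phase gene, had 210 and 225 FPKM in WT, 167 in KO replicate 1 and 324 in KO replicate 2. KO replicate 1 was below and KO replicate 2 above both WT libraries. Serpina3m had 238 and 244 FPKM in WT, 211 in KO replicate 1 and 281 in KO replicate 2, the same order with a smaller gap. Serpina3g, a Serpina3 gene found in leukocytes, had 1.66 and 1.10 FPKM in WT, 1.54 in KO replicate 1 and 3.89 in KO replicate 2. Of the remaining Serpina3 genes Serpina3f had 0.522 and 0.474 FPKM in WT, 0.848 in KO replicate 1 and 1.53 in KO replicate 2. Serpina3c, a close relative of Serpina3k, had 0.189 and 0.267 FPKM in WT, 0.109 in KO replicate 1 and 0.0595 in KO replicate 2. Serpina3a, Serpina3b, Serpina3h, Serpina3i and Serpina3j stayed at means of at most 0.0685 FPKM.

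**Figure D3:**
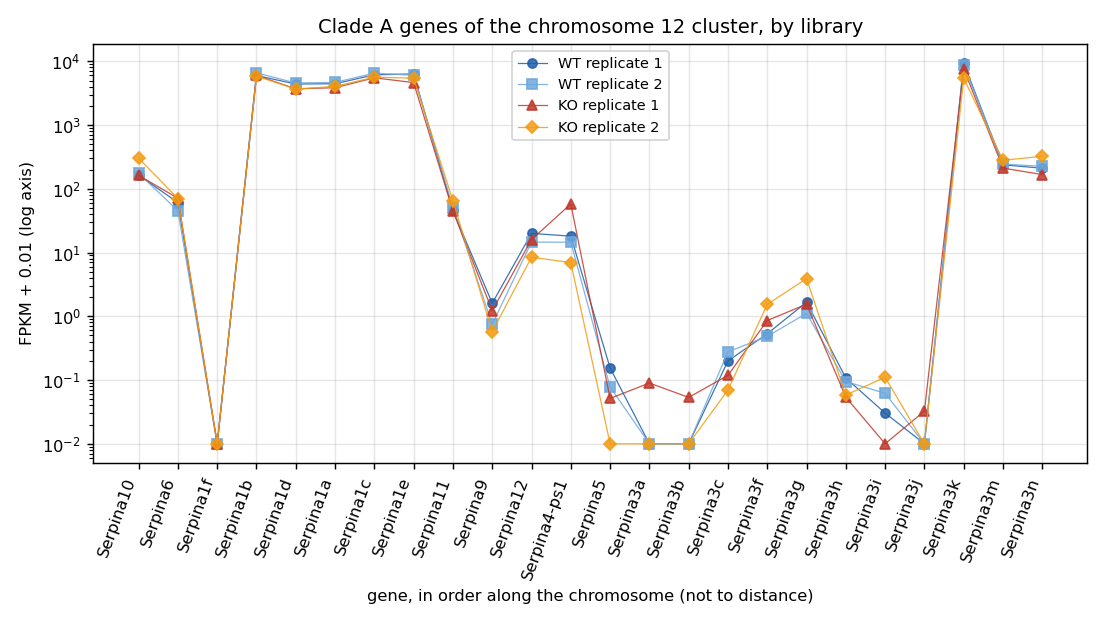
Lines join FPKM + 0.01 (log axis) of the 24 clade A genes of chromosome 12 in their order along the chromosome, not to distance, for each library. Levels differ by orders of magnitude between neighbours. Among the tested genes the libraries part most at Serpina4-ps1, where KO replicate 1 is at 57.8 and KO replicate 2 at 6.96 FPKM.

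At the Serpina10 end of the row, Serpina10 (103616675 to 103631490), the protein Z-dependent inhibitor of factor Xa, followed the order of Serpina3n. It had 163.4 and 174 FPKM in WT, 162.5 in KO replicate 1 and 302 in KO replicate 2. KO replicate 2 was 1.79 times the WT mean. Serpina11, a little-studied secreted serpin, had 45.8 and 50.9 FPKM in WT, 44.8 in KO replicate 1 and 65.1 in KO replicate 2. Serpina12, which encodes the adipokine vaspin, had 20.0 and 14.6 FPKM in WT, 16.0 in KO replicate 1 and 8.43 in KO replicate 2, so KO replicate 2 was the lowest. Serpina9 was near the minimum, with 1.59 and 0.739 FPKM in WT, against 1.22 and 0.564 in KO, and the groups overlapped. Serpina5, the protein C inhibitor gene, had 0.145 and 0.0678 FPKM in WT, against 0.0414 and 0 in KO.

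Serpina4-ps1 (104077959 to 104086920), a pseudogene related to kallistatin, parted the KO libraries more than any other Serpin gene tested. It had 18.1 and 14.5 FPKM in WT, 57.8 in KO replicate 1 and 6.96 in KO replicate 2. KO replicate 1 was 3.54 times the WT mean, while the WT mean was 2.34 times KO replicate 2. The gap between the KO libraries, 2.88 log2 units, was larger than in 99.8% of all genes tested. Its log2 difference of 0.33 (SE 0.85, limma adjusted p = 0.948) is thus a mean of opposite values, and the transcript was not among those matched for shared windows.

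The hormone carriers of clade A were among the 3 of 27 tested Serpin genes (11.1%) higher in both KO libraries, against 22.4% of all genes tested. Serpina6 (103646630 to 103657218), which encodes corticosteroid-binding globulin, had 60.9 and 45.4 FPKM in WT, against 71.1 and 70.3 in KO (log2 difference 0.42, SE 0.16, limma adjusted p = 0.614). The KO mean was 1.33 times the WT mean, and the WT libraries differed from each other more than the KO libraries did. Serpina7, which encodes thyroxine-binding globulin, had 47.6 and 40.1 FPKM in WT, against 50.8 and 48.3 in KO (log2 difference 0.18). Agt, which encodes the hormone precursor angiotensinogen, a serpin by fold without the name, had 280 and 304 FPKM in WT, against 273 and 355 in KO (log2 difference 0.09). Of 7 tested genes for other carriers, such as transthyretin and the IGF-binding proteins, 3 were higher and 4 lower, and none passed (median log2 difference −0.0020). Igfbp4, Igfbp2 and Ttr differed by 0.23, −0.19 and −0.11, and Shbg was listed at 0. Igfbp4 was higher in both KO libraries. Igfbp2 had 465 and 466 FPKM in WT, 534 in KO replicate 1 and 313 in KO replicate 2, on opposite sides of WT. For Ttr, KO replicate 1 lay between the WT libraries and KO replicate 2 below them.

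**Figure D4:**
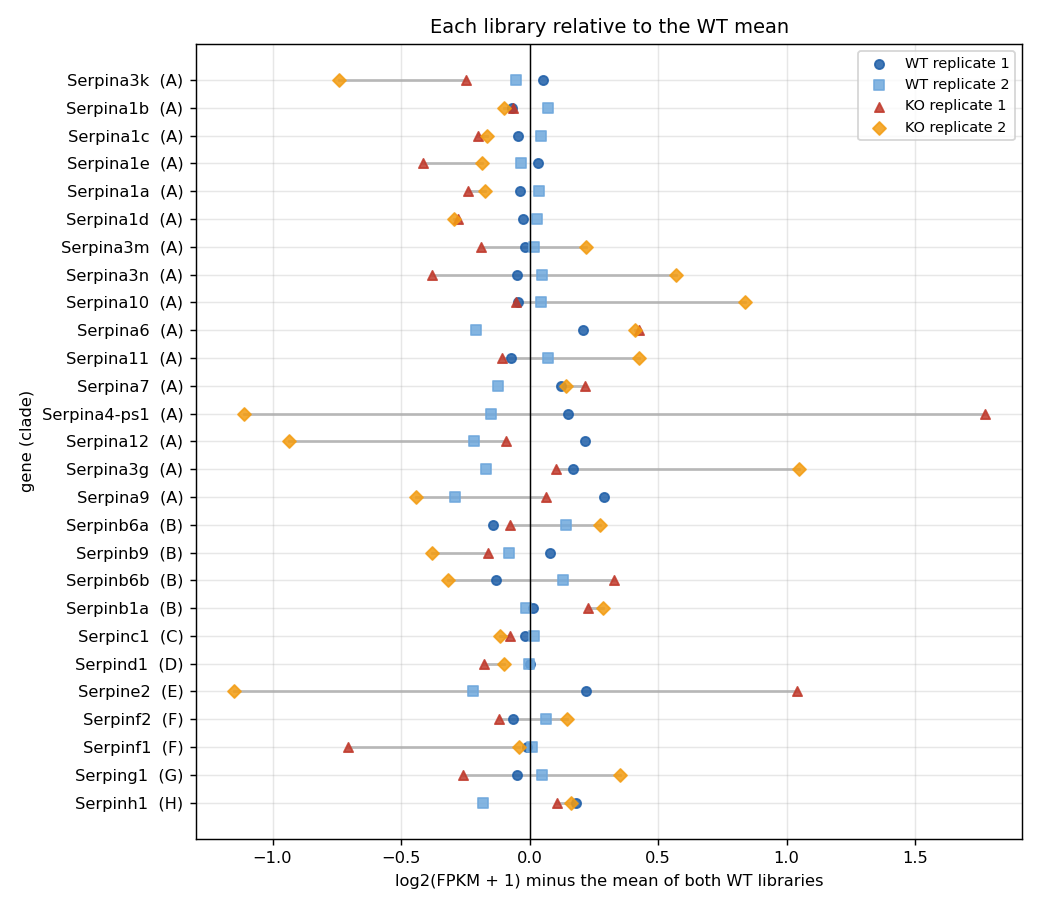
For each of the 27 tested Serpin genes, symbols give log2(FPKM + 1) of each library minus the mean of both WT libraries, and a grey line joins the KO libraries. The Serpina1 copies have short lines left of 0, while Serpina4-ps1 and Serpine2 have the longest lines, with KO replicate 1 on the right and KO replicate 2 on the left.

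Clade B, the intracellular serpins, was low throughout. Of its 27 genes 15 were listed at 0 in all libraries, 8 had a mean below 1 FPKM and 4 were tested. The clade summed to 13.4 and 14.3 FPKM in WT, against 14.0 and 14.2 in KO. The median over the 4 tested genes was 0.08 for KO replicate 1 and −0.02 for KO replicate 2 relative to the WT mean. The WT libraries lay at −0.06 and 0.06 on that measure, about as far apart. Serpinb6a, an inhibitor of cathepsin G, was the most abundant, with 5.24 and 6.60 FPKM in WT, against 5.53 and 7.33 in KO. Serpinb9, the granzyme B inhibitor, had 4.77 and 4.17 FPKM in WT, against 3.88 and 3.19 in KO (log2 difference −0.27, limma adjusted p = 0.663), so both KO libraries were below WT. Serpinb1a, an inhibitor of neutrophil elastase, had 0.941 and 0.902 FPKM in WT, against 1.25 and 1.35 in KO (log2 difference 0.26, limma adjusted p = 0.644), higher in both. Serpinb6b had 1.75 and 2.29 FPKM in WT, 2.78 in KO replicate 1 and 1.42 in KO replicate 2, which lay on opposite sides of WT. Serpinb8 stayed below the minimum, with 0.585 and 0.279 FPKM in WT, against 0.426 and 0.591 in KO.

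Clade B genes are also expressed by leukocytes, so markers of other cells are given beside them. The 9 Kupffer cell markers listed summed to 164 and 137 FPKM in WT, 142 in KO replicate 1 and 233 in KO replicate 2. The 5 neutrophil markers summed to 9.44 and 12.3 FPKM in WT, 6.72 in KO replicate 1 and 25.0 in KO replicate 2. The T and NK cell markers stayed between 1.28 and 2.26 FPKM and the B cell markers between 1.06 and 1.81 FPKM. Stellate cell markers summed to between 46.3 and 51.5 FPKM and endothelial markers to between 50.2 and 66.8. Cholangiocyte markers summed to 25.4 and 23.5 FPKM in WT, against 50.2 and 41.7 in KO. Most of that sum was Spp1, with 21.3 and 20.2 FPKM in WT, against 45.5 and 37.0 in KO. Krt19 was also higher in both KO libraries, while Sox9 had 2.20 and 1.44 FPKM in WT, against 1.18 and 2.09 in KO. Of the pancreatic acinar markers 4 of 6 were listed at 0. The list summed to between 14.1 and 25.6 FPKM, nearly all of it Cela1 (13.7 to 25.4 FPKM). The hepatocyte markers summed to between 14200 and 16130 FPKM, with Alb as the only one at 0. The largest part was Apoa1, at 7619 to 8880 FPKM. Of the 7 tested, 2 were higher and 2 lower in both KO libraries, against 22.4% and 16.4% of all genes tested. Cps1, with the smallest p of them, had 620 and 621 FPKM in WT, against 362 and 400 in KO (log2 difference −0.70, limma adjusted p = 0.246). The part of these cells in the Serpin values was not tested.

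The clotting inhibitors of clades C and D varied little. Serpinc1 (chromosome 1, 160978583 to 161002543), which encodes antithrombin, had 894 and 916 FPKM in WT, against 859 and 835 in KO (log2 difference −0.10, SE 0.13, limma adjusted p = 0.895). Serpind1, which encodes the thrombin inhibitor heparin cofactor II, had 263 FPKM in each WT library and 232 and 245 FPKM in KO (log2 difference −0.14, SE 0.12, limma adjusted p = 0.814). Both KO libraries were below both WT libraries for each gene, by margins of 1.07 and 1.10 times between the means.

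In clade E, Serpine2 (chromosome 1, 79794317 to 79858665), which encodes protease nexin-1, a cell-surface inhibitor of thrombin and urokinase, resembled Serpina4-ps1. It had 12.0 and 8.60 FPKM in WT, 22.0 in KO replicate 1 and 4.03 in KO replicate 2, so the KO libraries lay on opposite sides of WT and their ratio was 5.46. The mean log2 difference was −0.06 (SE 0.66, limma adjusted p = 0.991). Serpine3 was above 0 in 1 library only, at 0.0366 FPKM in WT replicate 2.

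Clade F lies on chromosome 11 at 75410029 to 75439501 with its 2 genes side by side. Serpinf1, which encodes the non-inhibitory serpin PEDF, had 370 and 376 FPKM in WT, 228 in KO replicate 1 and 362 in KO replicate 2 (log2 difference −0.37, SE 0.23, limma adjusted p = 0.735). KO replicate 1 stood alone, at a level the WT mean exceeded 1.63 times, while KO replicate 2 was just below WT. Its neighbour Serpinf2, which encodes the plasmin inhibitor α2-antiplasmin, had 468 and 512 FPKM in WT, against 451 and 542 in KO (log2 difference 0.01). Serping1 (chromosome 2, 84765360 to 84775444), which encodes C1 inhibitor, the control of complement C1 and plasma kallikrein, had 356 and 381 FPKM in WT, 307 in KO replicate 1 and 469 in KO replicate 2. Serpinf2 and Serping1 thus had the order of Serpina3n and Serpina10, with KO replicate 1 lowest and KO replicate 2 highest.

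Serpinh1 (chromosome 7, 99345375 to 99353239) encodes HSP47, a collagen chaperone of the endoplasmic reticulum that is heat inducible. It had 7.52 and 5.62 FPKM in WT, against 7.10 and 7.39 in KO, and the groups overlapped. Its clients and partners, the 14 tested collagen and collagen-folding genes, had a median log2 difference of 0.03, with 8 higher, 6 lower and none past the threshold. The tested folding genes were all above 0 (0.02 to 0.34), and the 6 lower genes were all collagens (−0.12 to −0.02). Both KO libraries were above both WT libraries in 5 of the 14 and below in 0, against 22.4% and 16.4% of all genes tested. Crtap, P4ha1 and Ppib had the smallest p among them and were higher in KO by 0.27, 0.34 and 0.14. Of 8 tested heat shock genes, 4 had a log2 difference above 0 and 4 below (median 0.28), and none passed the threshold. The 4 above 0 were higher in both KO libraries, against 22.4% of all genes tested. Only Hspd1, which like Hspe1 of this list encodes a mitochondrial and not a cytosolic chaperone, was lower in both, against 16.4% of all genes. Hspb1, Hspe1 and Hsp90aa1 had log2 differences of −0.43, −0.21 and −0.07, and their groups overlapped. Dnajb1, a co-chaperone of HSP70, had 5.84 and 6.33 FPKM in WT, against 12.0 and 12.7 in KO (log2 difference 0.91, limma adjusted p = 0.108). Hspa8 had 403 and 361 FPKM in WT, against 623 and 700 in KO, and Hspa1b differed by 0.63. In clade I, Serpini1, which encodes neuroserpin, stayed between 0.0278 and 0.0915 FPKM and Serpini2 was listed at 0.

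Acute phase genes were set beside the members that parted the KO libraries. Relative to the WT mean, the median over the 28 tested acute phase genes was −0.38 for KO replicate 1 and 1.02 for KO replicate 2, with the WT libraries at −0.11 and 0.11. Their mean log2 difference was above 0 in 27 of 28, against 5361 of 9820 genes tested, and none passed the threshold. Both KO libraries were above both WT libraries in 6 of the 28, near the share of 22.4% over all genes tested. The exception, Apcs, had 118 and 139 FPKM in WT, 71.5 in KO replicate 1 and 210 in KO replicate 2 (log2 difference −0.06). Cebpd and Cebpb, transcription factors of this response, had log2 differences of 0.62 and 0.94. The metallothionein gene Mt2 was at 3.74 and 3.29 FPKM in WT, 8.67 in KO replicate 1 and 230.3 in KO replicate 2 (log2 difference 3.39, SE 1.33), so KO replicate 2 stood far above the other libraries. Saa1, serum amyloid A, had 65.8 and 87.3 FPKM in WT, 34.7 in KO replicate 1 and 1244 in KO replicate 2. Serpina3n, Serpina3m, Serpina10, Serpina11, Serpinf2 and Serping1 had KO replicate 1 below and KO replicate 2 above both WT libraries (6 of 27, 22.2%, against 9.92% of all genes tested). Serpina4-ps1, Serpine2 and Serpinb6b had the opposite order (3 of 27, 11.1%, against 9.42%). For Serpina10 and Serpina11, KO replicate 1 was only just below WT replicate 1, at 162.5 against 163.4 FPKM and 44.8 against 45.8 FPKM. The part of the acute phase genes in these orders was not tested.

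The proteases that serpins inhibit, their cofactors and inhibitors of other families complete the system. Of 19 tested proteases 10 were higher and 9 lower in KO, with none past the threshold and a median log2 difference of 0.0044. Masp1, a lectin pathway protease that C1 inhibitor controls, had 22.7 and 25.7 FPKM in WT, against 15.6 and 20.2 in KO (log2 difference −0.42, limma adjusted p = 0.584). F11 and Klkb1, which encode factor XI and plasma kallikrein, differed by −0.20 and −0.21. The 6 tested cofactors and receptors were split evenly (median 0.07), with Pros1, Sdc4 and Lrp1 at 0.28, 0.46 and 0.14. Over the 6, the median relative to the WT mean was −0.18 for KO replicate 1 and 0.26 for KO replicate 2. The WT libraries lay at −0.07 and 0.07 on that measure. Only Pros1 was higher in both KO libraries. For Sdc4, KO replicate 1 lay between the WT libraries and KO replicate 2 above them. Lrp1 had KO replicate 1 below and KO replicate 2 above both WT libraries. Of 20 tested inhibitors of other families 17 were higher and 3 lower (median 0.10), none past the threshold. Of all 9820 genes tested, 5361 were higher. Relative to the WT mean, the median over the 20 was −0.05 for KO replicate 1 and 0.23 for KO replicate 2. Both KO libraries were above both WT libraries in 6 of the 20 and below in 2, against 22.4% and 16.4% of all genes tested. Tfpi2 and Mug1, a Kunitz inhibitor and a murinoglobulin, differed by −0.30 each, and Spint2, an inhibitor of hepatocyte growth factor activator, by 0.31. The median over all genes tested was 0.02.

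Left-out libraries changed the calls of Serpin genes. Without KO replicate 1, limma called 7 of 26 Serpin genes against 3.63% of all genes: Serpina10 and Serpina3g, with log2 differences of 0.84 and 1.05, Serpina3n (0.57), Serpina3k (−0.74), Serpina12 (−0.94), Serpina4-ps1 (−1.11) and Serpine2 (−1.15). Without KO replicate 2, it called 3 of 27 against 1.41%: Serpina4-ps1 (1.77), Serpine2 (1.04) and Serpinf1 (−0.71). Serpina4-ps1 and Serpine2 were thus called in opposite directions. Each of these fits compares a single KO library with WT and assumes that it varies as WT does. Without either WT library no Serpin gene was called.

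RefSeq promoter windows of GRCm38 (250 bases before to 50 after a gene's start) were available for 19 of the 27 tested genes and searched on both strands for short motifs. TTCNNNGAA, the form bound by STAT factors such as the acute phase activator STAT3, was found in 3 of the 19 against 9.55% of all genes with a window. In each of the 3 genes KO replicate 2 was above both WT libraries. The same held for 11 of the 27 tested Serpin genes (40.7%) and for 41.6% of all genes tested. The 3 stretches are shown with the motif in capitals, at chr12:104236098-104236138 (plus strand), chr12:103989984-103990024 (minus strand) and chr13:34002847-34002887 (minus strand).

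Serpina3g: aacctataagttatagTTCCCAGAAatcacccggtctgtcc
Serpina11: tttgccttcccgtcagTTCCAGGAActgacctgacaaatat
Serpinb6a: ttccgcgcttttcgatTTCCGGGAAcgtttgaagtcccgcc

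ATTGCNNAA, a C/EBP form, was found in Serpina1a and Serpina7 (2 of 19, against 2.51%), and the heat shock form TTCNNGAA in Serpinb6a only (9.6% of all genes). CACGTG, the E-box (8.09%), TCACNCCAC, a sterol response element (1.44%), and TGTTTAC, a forkhead form (4.05%), were in none of the 19 windows. A match or its lack describes these letters in these windows and not the binding of a factor.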

How the data were processed

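Per the file headers, the authors deposited FPKM by RefSeq transcript for each library in 1 table. Per the submitters' processing notes, Bowtie and TopHat were used with the mm10 build. Versions, the FPKM program, annotation and strand setting were not given in the sources used here. Groups came from the sample titles, and no batch is named. The steps of low values were best fitted by about 22800000, 20800000, 22800000 and 20500000 fragments (WT 1, WT 2, KO 1, KO 2). Only 50.9% to 53.4% of them lay within 0.1 of a whole fragment, so no count test was run.

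Of 33170 rows, those with the same gene number were summed. All 63 members matched a RefSeq gene table of GRCm38.p6, which gave the coordinates. Genes with a mean of at least 1 FPKM entered limma 3.58.1 under R 4.3.3 (intensity trend, log2(FPKM + 1), Benjamini-Hochberg, threshold 0.05). The script was tested on simulated data. The smallest p that an exact permutation test of 2 libraries against 2 allows is 0.333, so none was used. Medians for single KO libraries have no test, and calls for a single KO library come from limma with the other KO library left out.

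Members and lists were chosen with earlier results of these data known. Every member with a mean of at least 1 FPKM is described, along with the 3 genes of each related list with the smallest p, Agt and Srebf1. 1 member below that level is not reported here. Alb, Saa1, Apoa1, Cps1 and the other members below 1 FPKM were named after their values were seen. Shared windows were 100 bases long and compared with all GENCODE M21 transcripts. Further tools were pandas 2.3.3, numpy 2.4.6 and matplotlib 3.10.9, under python 3.11.15.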

Additional observations from a re-analysis of the deposited data

How the results depend on the processing

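The count of 7 genes past the threshold over the whole table became 11 with a pseudocount of 0.1, 0 without a filter on low values (1483 genes at an unadjusted limma p under 0.05), 3 with a minimum of 5 FPKM, 4 with quantile scaling and 19 with the replicate number as a block, and ran from 1 to 357 with 1 library left out. The count of Serpin genes stayed at 0 under each of these settings with all 4 libraries, the replicate block included, and ran from 0 to 7 with 1 library left out. Libraries with the same number deviated together only weakly (r = 0.167 across 9820 genes), and with 2 pairs the number is not shown to pair them. The clade A median of KO replicate 1 (−0.10) was −0.0637 without a filter, −0.15 with a minimum of 5 FPKM, −0.13 with upper-quartile and −0.15 with quantile scaling, −0.0806 with single rows, and −0.17 to −0.16 with either WT library left out. That of KO replicate 2 (−0.13) was 0.00 without a filter, −0.15 with upper-quartile scaling and −0.15 to −0.0751 with either WT library left out. The clade B median of KO replicate 1 was 0.16 with a pseudocount of 0.1, and with a minimum of 5 FPKM clade B had too few genes for a median. The cause of these shifts was not tested.

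Single genes near 0 turned sign with scaling: Serpina3m to −0.0121 and Serpinf2 to −0.0122 with upper-quartile scaling, Serpinf2 to −0.049 and Serpinb6b to −0.0044 with quantile scaling, and Serpinb6b to −0.012 with upper-quartile scaling and −0.0094 with a pseudocount of 0.1. With 1 library left out the log2 difference ran across 0 in 12 genes: Serpina10 (−0.0535 to 0.84), Serpina11 (−0.11 to 0.42), Serpina3m (−0.19 to 0.22), Serpina3n (−0.38 to 0.57), Serpina4-ps1 (−1.11 to 1.77), Serpina9 (−0.48 to 0.0626), Serpinb6a (−0.0776 to 0.27), Serpinb6b (−0.32 to 0.33), Serpine2 (−1.15 to 1.04), Serpinf2 (−0.12 to 0.15), Serping1 (−0.26 to 0.35) and Serpinh1 (−0.0476 to 0.32). The Serpina1 copies, Serpina3k, Serpina6, Serpina7, Serpina12, Serpina3g, Serpinb1a, Serpinb9, Serpinc1, Serpind1 and Serpinf1 kept their direction in each of those fits. For all of these except Serpina1b, Serpina12 and Serpina3g, both KO libraries lay on the same side of both WT libraries. In that state leaving out 1 library cannot turn the direction, so the kept direction restates the lack of overlap. Serpina9 was below the minimum level, and so not tested, without WT replicate 1 or without KO replicate 1.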
